A study of Oryza sativa with 8 samples.

Results

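The bZIP genes of rice were followed across roots and leaves of plants that overexpress 1 of them, OsbZIP83. Members were all gene rows of the expression table whose description named a bZIP or basic leucine zipper protein, or whose Oryzabase symbols included OsbZIP with a number. The description found 57 genes, the symbol 88 and both 52, which gave 93 members among 46120 genes. Of these, 81 carried a bZIP domain in the InterPro column and 12 did not. A mean of at least 1 RPM (reads per 1000000 gene reads) over the 8 libraries, the level required for testing, was reached by 72 members, and 21 stayed below it.

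The samples were roots and leaves of hydroponically grown rice, cultivar Tsukinohikari, with sufficient iron in every group. Each tissue had 1 sample of the non-transformant (NT) and 1 sample of each of 3 OsbZIP83 overexpression lines, named b83OX with the numbers 13, 15 and 19 and called lines 13, 15 and 19 here. The lines served as the replicates. The promoter of the transgene is not given in the sources used here, and it is not stated whether plants were pooled. The p-values therefore measure only the spread between these samples, with the lone NT library assumed to vary like the lines, and a lower value in a tissue can mean fewer cells of a type or less RNA per cell, which cannot be told apart.

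Proteins of the bZIP family bind DNA through a basic region and pair through a leucine zipper, as homodimers or with other members. Plant bZIP proteins fall into classes with different targets. TGA factors bind TGACG elements and work with NPR1-type proteins and CC-type glutaredoxins, and group A factors carry abscisic acid and florigen signals. HY5 acts in light signalling, and other classes serve seed storage proteins, the unfolded protein response and the response to low zinc.

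Libraries held about 17000000 to 35700000 gene reads, and between 79 and 88 members were above 0 in a library. Reads come from near the 3′ ends of transcripts and are not divided by length, so values are compared between libraries, and between genes only as shares of reads. The tissues matched their labels. The 9 leaf markers (Rubisco, light-harvesting and related genes) summed to between 0 and 190.2 RPM in roots and 75186 to 96029 RPM in leaves, and the 8 root markers (such as Lsi1 and OsIRT1) to 6897 to 8944 RPM in roots and 1.105 to 15.8 RPM in leaves. OsHAK5, 1 of these 8, went the other way, with 0.372 to 1.21 RPM in roots and 0.411 to 11.5 RPM in leaves. The 190.2 RPM of leaf markers was in the lone NT root library and came from the light-harvesting gene CAB1R alone. In roots of lines 13, 15 and 19 CAB1R was at 0, 3.95 and 0 RPM.

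OsbZIP83 (locus Os12g0152900, chromosome 12) has the Arabidopsis gene TGA6 as its best match in the deposited annotation. Its root values were 32.00 RPM for NT, with 154, 186 and 188 RPM for lines 13, 15 and 19. In leaves it was at 1.62 RPM for NT, with 75.3, 100.5 and 94.98 RPM for lines 13, 15 and 19. The line values lay above NT in both tissues, with no overlap, and reads of the native gene and of the transgene cannot be told apart. The log2 fold change was 2.42 ± 0.19 in roots (SE, limma adjusted p = 0.000993) and 5.11 ± 0.19 in leaves (limma adjusted p = 2.67e-05).

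The tissues differed in fold and differed less in the amount gained. In roots the lines reached 4.81, 5.82 and 5.86 times the NT value, a gain of 122, 154 and 156 RPM. In leaves they reached 46.6, 62.1 and 58.7 times the NT value, a gain of 73.7, 98.8 and 93.4 RPM. The ratio of root to leaf OsbZIP83 was 19.8 in NT and 2.04, 1.85 and 1.98 in lines 13, 15 and 19. The leaf folds and the NT ratio rest on the NT leaf value of 1.62 RPM. Reads appear to have been deducted from the values before deposit, as described under the processing. With the estimated deduction added back, the leaf log2 fold change was 4.52 instead of 5.11. The difference of effects, tested next, was then -2.17. The test of the difference of the 2 log2 effects gave -2.70 ± 0.26 (limma adjusted p = 0.0164). This was 1 call among 72 members, where 0.382% of all 21991 genes tested passed, 0.123% with the larger effect in roots and 0.259% with the larger effect in leaves. It did not pass without line 15 (adjusted p = 0.118) or without line 19 (adjusted p = 0.242), and its size was -3.26 with a pseudocount of 0.1 RPM and -1.55 with 5 RPM, where it passed. The root effect did not pass without line 19 (adjusted p = 0.0671) or when fitted on the 4 root libraries alone (adjusted p = 0.0519). The leaf effect did not pass when fitted on the 4 leaf libraries alone (adjusted p = 0.0603).

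Ordered by reads, OsbZIP83 stood near the top of the family in the lines and lower in NT. In NT roots OsbZIP83 ranked 30 among the members and took 1.03% of their reads, and in the lines it ranked 4, 4 and 3 with 4.71%, 5.66% and 5.51%. In NT leaves it ranked 55 with 0.154%, and in each line it ranked 4, with 6.28%, 7.69% and 7.91%. Within the 16 TGA-type members, OsbZIP83 took 6.01% of reads in NT roots and 24.01%, 25.6% and 24.8% in the lines. In leaves its share of TGA-type reads was 2.01% in NT and 48.1%, 50.8% and 50.8% in the lines. The rest of the TGA class summed to 501 RPM in NT roots against 487, 541 and 569 RPM in the lines. In leaves it summed to 78.6 RPM in NT against 81.2, 97.3 and 92.03 RPM, so every line lay above NT there. These sums were not tested, and 42.2% of all genes tested lay above NT in all 3 lines in leaves.

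**Figure D1:**
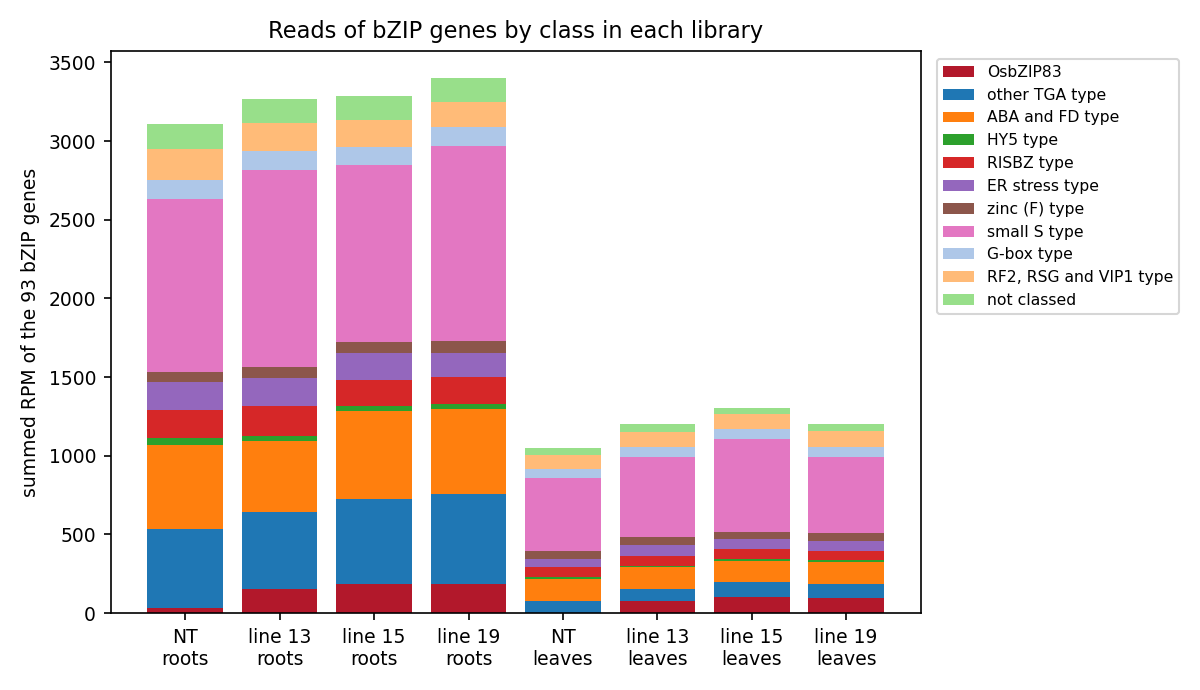
Summed RPM of the 93 bZIP genes in each of the 8 libraries (1 bar per library, y axis in RPM), split by class with OsbZIP83 as its own segment. Bars reach 3110 to 3404 RPM in roots and 1047 to 1306 RPM in leaves, and the OsbZIP83 segment is wider in every line than in NT of the same tissue.

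The summed reads of the family were lowest in NT in both tissues. All members summed to 3110 RPM in NT roots and to 3269, 3286 and 3404 RPM in the lines, and to 1047 RPM in NT leaves and 1199, 1306 and 1201 RPM in the lines. Without OsbZIP83 the root sums were 3078 RPM for NT and 3115, 3100.2 and 3216 RPM for the lines. The leaf sums without it were 1046 RPM for NT and 1124, 1206 and 1106 RPM for the lines. NT remained the lowest of the 4 in both tissues, and no test was made on these sums. In leaves the median log2 difference between lines and NT was 0.087 over all genes tested and 0.048 over the 72 tested members. With TMM rescaling these medians were 0 and -0.043, so the leaf sums do not show a rise particular to the family. The root sums include the abundant OsbZIP87, at 249.8 RPM for NT and 341, 293 and 341 RPM for the lines. By the median of the other members NT was highest in roots, at 15.04 RPM against 12.5, 13.6 and 13.5 RPM. In leaves that median was lowest in NT, at 2.93 RPM against 3.27, 3.31 and 3.23 RPM.

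OsbZIP83, overexpressed by design, was the 1 TGA-type gene, of 14 tested, that passed the threshold in either tissue. Over all genes tested 1.16% passed in roots and 3.79% in leaves. OsbZIP79 (Os11g0152700), whose best Arabidopsis match is TGA9, lies at a like position on chromosome 11, in an end that rice chromosomes 11 and 12 are known to share as a duplicated segment. Its root values were 49.8 RPM for NT, with 37.7, 45.4 and 41.4 RPM for lines 13, 15 and 19, so NT was the highest of the 4. In leaves it was nearly silent, at 0.199 RPM for NT, with 0.349, 0.597 and 0.337 RPM for lines 13, 15 and 19. The log2 difference between lines and NT was -0.26 ± 0.17 in roots (95% interval -0.67 to 0.15, limma adjusted p = 0.569) and 0.25 ± 0.17 in leaves (95% interval -0.16 to 0.65, limma adjusted p = 0.487). OsbZIP79 thus stayed under 1 RPM in the leaf libraries in which OsbZIP83 reached 75.3 to 100.5 RPM, although whether similar copies share reads was not tested.

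OsbZIP84 (Os12g0162500), named together with these TGA factors when the family was defined, carries in the table the name repression of shoot growth, that of RSG, a tobacco regulator of gibberellin synthesis. It was therefore placed with the RF2 and RSG class here and is described beside the TGA genes. Root values were 32.9 RPM for NT, with 34.1, 32.6 and 30.2 RPM for lines 13, 15 and 19. Leaf values were 27.3 RPM for NT, with 36.1, 32.5 and 30.1 RPM for lines 13, 15 and 19. Lines and NT overlapped in roots, and in leaves NT was the lowest of the 4. The difference was -0.03 ± 0.13 in roots (95% interval -0.34 to 0.28, limma adjusted p = 0.967) and 0.26 ± 0.13 in leaves (95% interval -0.05 to 0.57, limma adjusted p = 0.326). OsbZIP84 was also even between tissues as deposited, with a root minus leaf difference of 0.05 ± 0.10 (limma adjusted p = 0.657) that became -0.57 with TMM rescaling (adjusted p = 0.000269).

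The other tested TGA-type genes did not pass between lines and NT, where 1.16% of all genes passed in roots and 3.79% in leaves. All of these others but OsbZIP03 passed between roots and leaves, where 82.7% of all genes did. OsbZIP28 (best match AHBP-1B, the Arabidopsis TGA2) was the most read TGA gene of NT in both tissues, with 84.5 to 95.1 RPM in roots and 26.2 to 36.2 RPM in leaves. OsbZIP63, a TGA6 match, had 56.8 to 64.7 RPM in roots and 13.4 to 19.4 RPM in leaves. OsbZIP37 is OsTGAP1, known for control of diterpenoid phytoalexin genes, and its root values were 48.8 RPM for NT and 53.2, 65.9 and 72.02 RPM for the lines. Its root values in the lines all lay above NT, by a log2 difference of 0.37 ± 0.18 that did not pass (limma adjusted p = 0.433). OsbZIP08 had the largest root difference after OsbZIP83 within the class, at 14.5 RPM for NT and 18.9, 21.97 and 24.5 RPM for the lines, and with 0.55 ± 0.19 it did not pass either (limma adjusted p = 0.256). OsbZIP41, whose best match is PERIANTHIA, a regulator of floral organ number in Arabidopsis, had 21.7 to 26.2 RPM in roots and 3.66 to 5.19 RPM in leaves.

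Most of the remaining TGA genes were read mainly in roots. OsbZIP74, annotated as OsTGA10 with a role in the tapetum, the anther layer that feeds pollen, had 31.03 to 45.9 RPM in roots and 0 to 0.2001 RPM in leaves. OsbZIP11, similar to the maize ligule gene Liguleless2, had 25.7 to 38.3 RPM in roots and 0.317 to 0.709 RPM in leaves. OsbZIP70 had 45.02 to 62.4 RPM and 0.945 to 2.33 RPM, and OsbZIP64 had 55.4 to 71.3 RPM and 5.66 to 6.38 RPM, in roots and leaves in that order. Every tested TGA gene except OsbZIP03 and OsbZIP83 was lower in each leaf library than in any root library. OsbZIP49 had 11.8 to 15.1 RPM in roots and 1.09 to 2.34 RPM in leaves, and OsbZIP17 had 7.698 to 9.14 RPM in roots and was listed at 0 in the leaves of all 3 lines. OsbZIP03, annotated as a TGA6-like factor, was even between tissues as deposited, with 11.6 to 12.3 RPM in roots and 12.1 to 13.9 RPM in leaves, and with TMM rescaling it was higher in leaves (-0.72, adjusted p = 1.63e-05). OsbZIP43 and OsbZIP47 were below the level for testing, with highest values of 0.265 and 0.369 RPM.

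**Figure D2:**
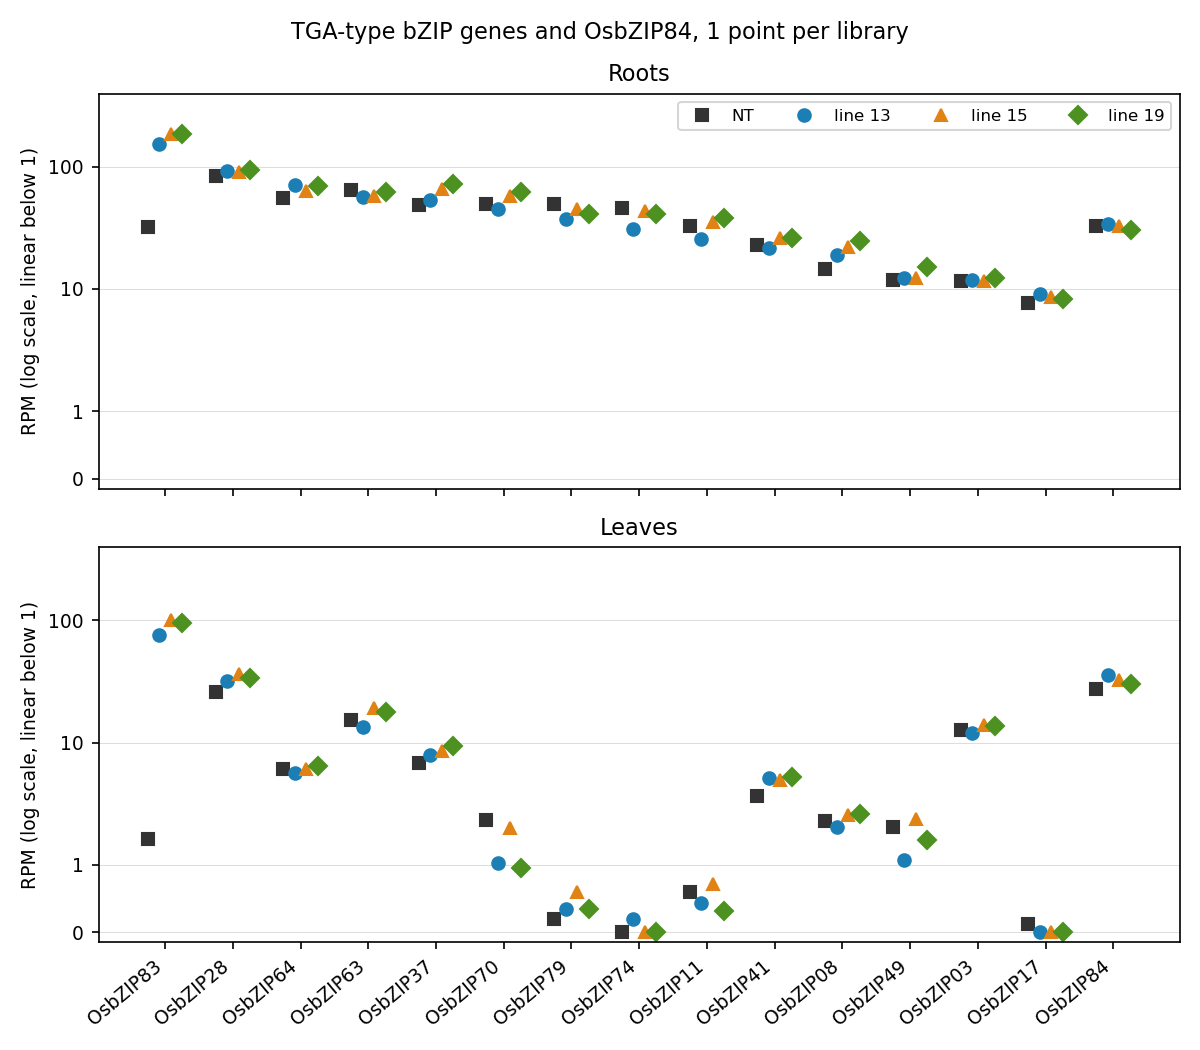
RPM (log axis, linear below 1) of the 14 tested TGA-type genes and OsbZIP84 in roots (top) and leaves (bottom), 1 point per library, with NT as squares and the lines as circles, triangles and diamonds. The line points stand clear of NT for OsbZIP83 in both tissues, and OsbZIP79, OsbZIP74, OsbZIP11 and OsbZIP17 lie below 1 RPM in all leaf libraries.

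Outside OsbZIP83, no further member passed in roots. The count in roots was 1 of 72, or 1.39%, against 1.16% of all genes tested, with 0.655% of all genes called higher and 0.509% lower. Of the members, 10 had an unadjusted p under 0.05, which is 13.9% beside 13.5% of all genes. In roots 22 members lay above NT in all 3 lines (30.6%, against 31.9% of all genes) and 28 lay below it in all 3 (38.9%, against 33.4%). Members with at least 5 RPM in roots numbered 62, and in 57 of them the mean of the lines was within 1.5 times of NT. The coefficient of variation among the lines had a median of 8.86% over these genes.

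The lowest root ratio among them belonged to OsbZIP06, similar to VIP1, a factor that Agrobacterium uses in plant cells through its VirE2 protein. Its values were 33.7 RPM for NT, with 18.2, 15.9 and 13.8 RPM for lines 13, 15 and 19. The lines lay below NT with no overlap, with a log2 difference of -1.04 ± 0.19, and missed the threshold (limma adjusted p = 0.0587), while with a pseudocount of 5 RPM OsbZIP06 was the second member to pass. OsbZIP46, also called ABL1 and OsABF2, a positive regulator of abscisic acid signalling, was at 21.3 RPM for NT and 8.34, 11.8 and 12.6 RPM for the lines in roots. Its difference of -0.92 ± 0.24 did not pass (limma adjusted p = 0.156). After OsbZIP83, the highest root ratio among the members averaging 5 RPM or more belonged to OsbZIP73, a small bZIP, at 20.7 RPM for NT and 29.3, 36.8 and 37.7 RPM for the lines, with a difference of 0.71 ± 0.32 that did not pass (limma adjusted p = 0.396).

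In leaves 5 of 72 members passed, or 6.94%, against 3.79% of all genes tested. Of these 4 were higher in the lines (2.66% of all genes) and 1 was lower (1.13% of all genes). OsbZIP83, overexpressed by design, is 1 of the 4 higher, and the counts of members in this paragraph include it. An unadjusted p under 0.05 was found for 18 members, 25.0%, beside 20.99% of all genes. With TMM rescaling 3 members passed, 1 higher (OsbZIP83) and 2 lower (OsbZIP18 and OsbZIP82). The calls over all genes went from 585 higher and 249 lower to 454 and 389. Members above NT in all 3 lines were 27 (37.5%, against 42.2% of all genes) and members below it in all 3 were 16 (22.2%, against 20.6%). Of 40 members with at least 5 RPM in leaves, 34 had a line mean within 1.5 times of NT, and the median coefficient of variation among the lines was 8.80%.

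OsbZIP18 (Os02g0203000), similar to HY5, fell in leaves. Its leaf values were 10.5 RPM for NT, with 4.29, 4.05 and 3.35 RPM for lines 13, 15 and 19. Every line lay below the NT value by more than the lines differed among themselves, and the change was -1.24 ± 0.16 (SE, limma adjusted p = 0.0106). In roots the values were 20.6 RPM for NT and 13.6, 15.2 and 15.98 RPM for the lines, again all below NT, with a difference of -0.44 ± 0.16 that did not pass (limma adjusted p = 0.301). The leaf call was kept under both rescalings and did not pass without line 15 (adjusted p = 0.0674), without line 19 (adjusted p = 0.0716) or in the fit on leaves alone (adjusted p = 0.237). Of the members that averaged 5 RPM or more, it was the 1 at least 2-fold below NT in all 3 lines, where 0.733% of 13515 genes in leaves met that rule, and OsbZIP83 was the 1 at least 2-fold above (2.31% in leaves and 0.757% of 15332 genes in roots). In roots 0 members and 0.359% of genes at this level were at least 2-fold below NT in all 3 lines. Below this level OsbZIP88, named after its values were seen, was over 2-fold above NT in the 3 lines in roots. It was at 0.297 RPM for NT and 0.927, 0.894 and 1.36 RPM for the lines, with a difference of 0.66 ± 0.24 that did not pass (limma adjusted p = 0.285). Other low members met the rule in roots too, such as OsbZIP16, untested, at 0.168 RPM for NT and 0.988, 0.818 and 0.613 RPM for the lines. The share of all genes meeting it at such low levels was not counted.

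The other HY5-type genes did not pass. Root values of OsbZIP01 were 22.1 RPM for NT and 16.4, 16.5 and 16.6 RPM for the lines. Its leaf values were 2.67 RPM for NT and 1.97, 0.925 and 1.62 RPM for the lines, so it lay below NT in every line of both tissues. Its differences were -0.40 ± 0.23 in roots (limma adjusted p = 0.511) and -0.58 ± 0.23 in leaves (limma adjusted p = 0.216). OsbZIP48 lay the other way in leaves, at 2.58 RPM for NT and 3.79, 4.63 and 4.18 RPM for the lines, with a difference of 0.54 ± 0.16 (limma adjusted p = 0.113).

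OsbZIP12, or OsABF1, a group A factor of abscisic acid signalling, rose in leaves. Its leaf values were 10.9 RPM for NT, with 17.4, 21.7 and 23.5 RPM for lines 13, 15 and 19. Every line lay above NT, by 0.86 ± 0.18 on the log2 scale (SE, limma adjusted p = 0.0486). Root values were 23.7 RPM for NT and 27.6, 28.1 and 32.6 RPM for the lines, with a difference of 0.30 ± 0.18 that did not pass (limma adjusted p = 0.53). OsbZIP33, or RISBZ2, known for binding storage protein promoters in the endosperm, rose in leaves. It was at 6.63 RPM for NT and 10.4, 12.04 and 10.4 RPM for the lines, a change of 0.64 ± 0.13 (limma adjusted p = 0.0414). OsbZIP60 (Os07g0644100), whose best Arabidopsis match bZIP17 is a membrane-bound factor of the stress response of the endoplasmic reticulum, rose in leaves. It was at 5.55 RPM for NT and 8.36, 9.56 and 9.88 RPM for the lines, a change of 0.65 ± 0.13 (limma adjusted p = 0.044). In roots its lines lay below NT, at 38.4 RPM for NT and 36.1, 35.2 and 33.2 RPM for the lines, without passing (limma adjusted p = 0.706). These 3 calls were close to the threshold. With TMM rescaling their adjusted p was 0.0542, 0.0773 and 0.0531, and they missed it in 7, 8 and 9 of the 12 alternatives tried.

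**Figure D3:**
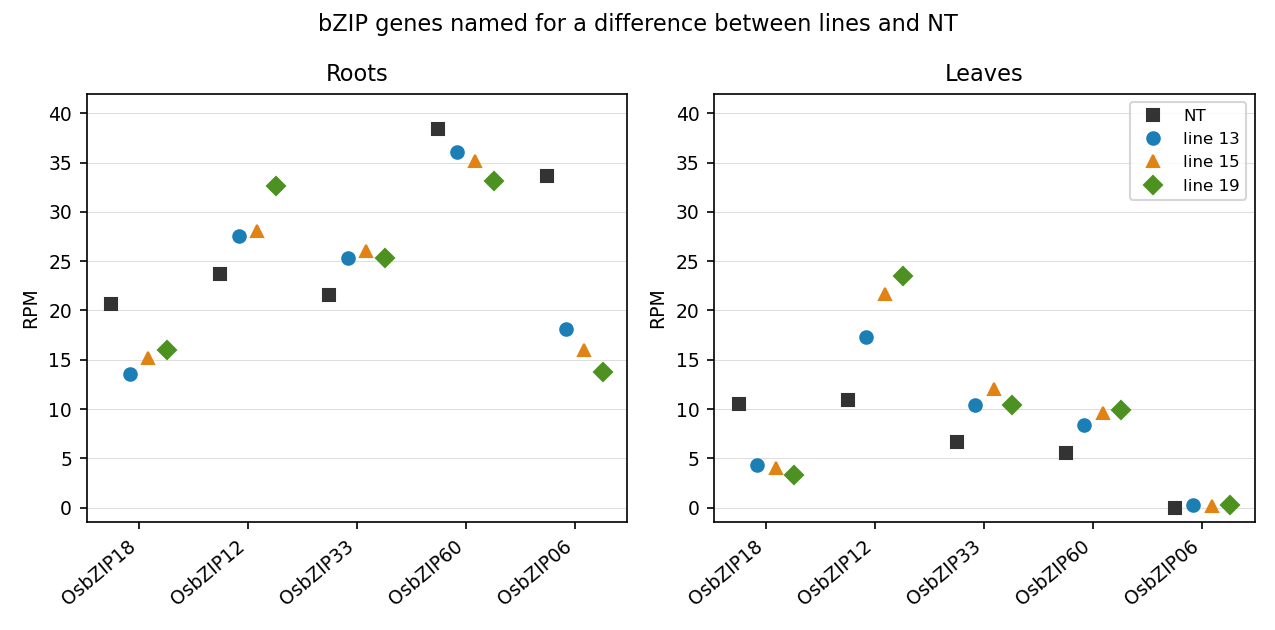
RPM (linear axis) of OsbZIP18, OsbZIP12, OsbZIP33, OsbZIP60 and OsbZIP06 in roots (left) and leaves (right), 1 point per library with the same symbols for NT and lines. In leaves the 3 line points of OsbZIP18 lie below NT and those of OsbZIP12, OsbZIP33 and OsbZIP60 above it, and in roots those of OsbZIP06 lie below NT.

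OsbZIP82 of no assigned class was close to the threshold in leaves, at 26.3 RPM for NT and 18.6, 18.5 and 20.1 RPM for the lines. The difference was -0.45 ± 0.10 and did not pass (limma adjusted p = 0.0632), while it passed with TMM rescaling and with quantile normalization. In roots the same gene was at 51.5 RPM for NT and 52.8, 51.8 and 52.3 RPM for the lines, a spread of under 2 RPM. Among the 20 tested genes nearest along the chromosome to each called member, 2 passed in roots and 1 in leaves around OsbZIP83, 1 passed around OsbZIP60, and 0 passed around OsbZIP18, OsbZIP33 and OsbZIP12, beside 1.16% of all genes in roots and 3.79% in leaves.

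**Figure D4:**
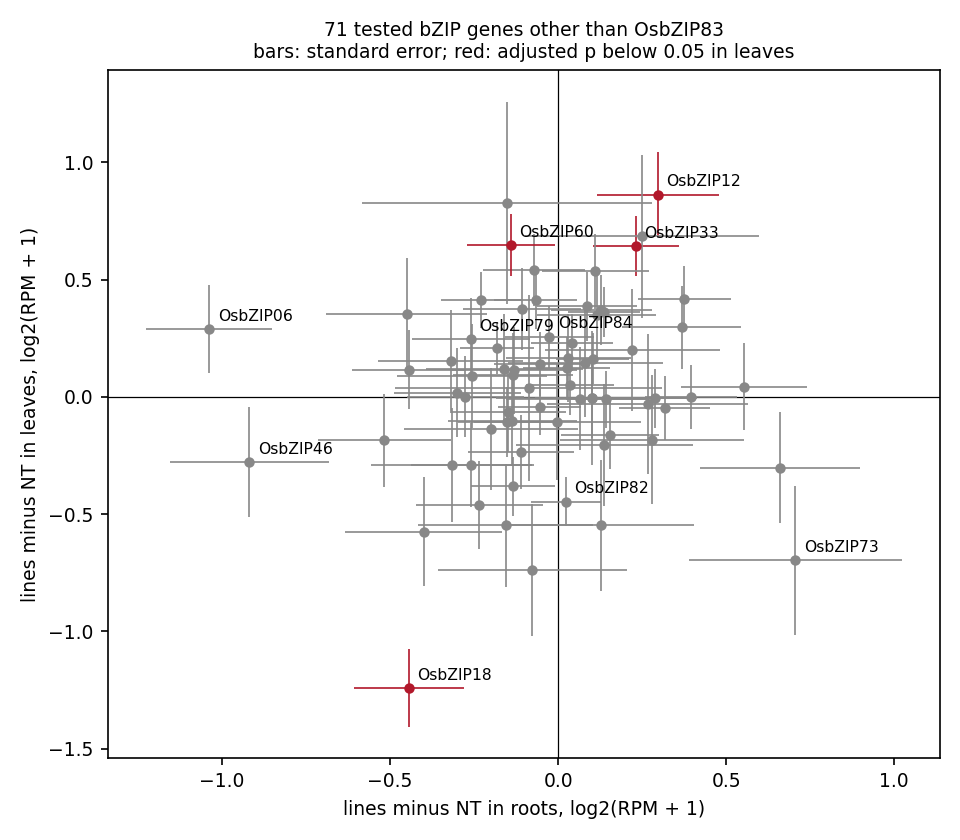
Log2 difference between lines and NT in roots (x axis) and leaves (y axis), on log2(RPM + 1), for the 71 tested bZIP genes other than OsbZIP83, with bars of 1 standard error and the 4 genes called in leaves in red. The 2 axes share no library. Most points lie near the origin, OsbZIP18 lies lowest at -1.24 in leaves, and OsbZIP06 lies farthest left at -1.04 in roots.

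The most abundant reads of the family came from small bZIP genes that did not pass between lines and NT. OsbZIP38, or LIP19, a small bZIP known for induction by cold, led both tissues, with 556 to 629 RPM in roots and 161 to 249 RPM in leaves. Its difference was 0.06 ± 0.22 in roots (limma adjusted p = 0.942) and -0.01 ± 0.22 in leaves (limma adjusted p = 1). OsbZIP87, or OsOBF1, known as a dimer partner of LIP19 and described in the table as a non-coding transcript, came next with 249.8 to 341 RPM in roots and 141 to 199 RPM in leaves. It lay above NT in all lines of both tissues, by 0.37 ± 0.14 in roots (limma adjusted p = 0.301) and 0.42 ± 0.14 in leaves (limma adjusted p = 0.144). OsbZIP71, linked to drought and salt tolerance, had 105 to 121 RPM in roots and 86.6 to 109 RPM in leaves. The small class to which these belong took more reads than any other class in all 8 libraries, 1098 to 1252 RPM in roots and 463 to 590 RPM in leaves. Its other abundant members were OsbZIP65, with 84.97 to 112 RPM in roots and 5.37 to 7.91 RPM in leaves, and OsbZIP14, with 32.3 to 42.4 RPM and 23.1 to 27.7 RPM.

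Many more members passed between roots and leaves than between lines and NT. Of 72 members 63 passed between the 4 root and 4 leaf libraries, 56 higher in roots and 7 higher in leaves, or 77.8% and 9.72%. Over all genes tested 82.7% passed, and 58.5% were called higher in roots and 24.2% higher in leaves. The median difference was 1.64 on the log2 scale over members and 0.59 over all genes. With TMM rescaling the medians were 1.02 and 0.03, and 45 members were higher in roots and 14 in leaves, against 9003 and 8561 of all genes. Relative to the all-gene median, 54 members lay on the root side as deposited and 51 with TMM rescaling. Under TMM 9 members changed sign, namely OsbZIP13, OsbZIP14, OsbZIP39, OsbZIP42, OsbZIP59, OsbZIP71, OsbZIP81, OsbZIP84 and OsbZIP86.

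The TGA class had the largest median root excess of the 9 classes and the unclassed genes, as deposited and under both rescalings. Its median was 2.67, with 12 of 14 genes higher in roots and 0 higher in leaves (limma, also 0 at an unadjusted p under 0.05), and with TMM it was 2.10, with 12 higher in roots and 1 higher in leaves. The gene called higher in leaves under TMM was OsbZIP03. The 2 genes not called as deposited were OsbZIP03 and OsbZIP83, whose difference of 1.63 ± 1.15 mixes NT with the lines (limma adjusted p = 0.211). Over all genes tested the median was 0.59 as deposited, with 58.5% higher in roots and 24.2% higher in leaves. With TMM it was 0.03, with 40.9% and 38.9%.

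**Figure D5:**
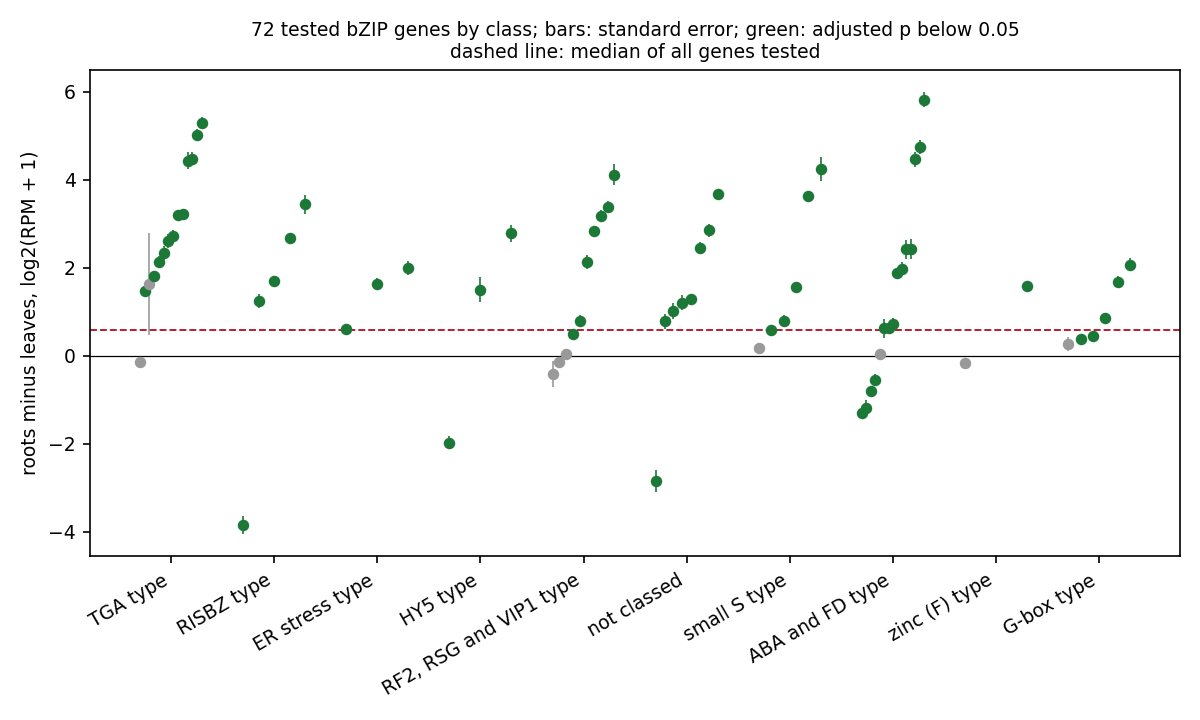
Root minus leaf difference on log2(RPM + 1) for the 72 tested bZIP genes by class, with bars of 1 standard error, genes called at an adjusted p below 0.05 in green and the all-gene median of 0.59 as a dashed line. The TGA points reach from -0.13 to 5.29, and the 7 called points below 0 belong to the RISBZ, HY5, abscisic acid and FD, and unclassed genes.

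The 8 members highest in roots relative to leaves were, in order, OsbZIP56, OsbZIP74, OsbZIP79, OsbZIP54, OsbZIP11, OsbZIP55, OsbZIP70 and OsbZIP73, with differences from 5.83 down to 4.25 at a pseudocount of 1 RPM. The order depends on the pseudocount, and with 0.1 RPM OsbZIP74 (8.24) and OsbZIP79 (6.59) stood above OsbZIP56 (6.47). OsbZIP54, OsbZIP55 and OsbZIP56 are annotated as OsFD6, OsFD2 and OsFD5, relatives of FD, the partner of florigen at the shoot tip. OsbZIP54 had 155 to 201 RPM in roots and 4.13 to 7.61 RPM in leaves. OsbZIP56 had 122 to 169 RPM in roots and 0.942 to 2.28 RPM in leaves. OsbZIP55 had 21.5 to 35.5 RPM in roots and 0.1903 to 0.454 RPM in leaves. These 3 loci lie on chromosome 6 with close locus numbers (Os06g0719500, Os06g0720900 and Os06g0724000).

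The 7 members higher in leaves were OsbZIP88 (-3.85 ± 0.20), OsbZIP57 (-2.85 ± 0.24), OsbZIP48 (-1.97 ± 0.15), OsbZIP72 (-1.30 ± 0.11), OsbZIP62 (-1.19 ± 0.19), OsbZIP24 (-0.79 ± 0.11) and OsbZIP09 (-0.54 ± 0.13). OsbZIP88, matched to the Arabidopsis group C gene BZO2H1, had 0.297 to 1.36 RPM in roots and 19.1 to 29.8 RPM in leaves, opposite to the other tested genes of its class. OsbZIP48, one of 3 HY5-type genes, had 0.141 to 0.268 RPM in roots and 2.58 to 4.63 RPM in leaves, whereas OsbZIP18 and OsbZIP01 were higher in roots. OsbZIP72, an abscisic acid factor, had 11.2 to 13.4 RPM in roots and 29.3 to 39.3 RPM in leaves, and OsbZIP09, or HBF2, a binding partner of the florigen Hd3a that delays flowering, had 3.31 to 4.93 RPM and 6.06 to 6.78 RPM. OsbZIP62 and OsbZIP24 (OsFD3) complete the group A members of this side, with highest leaf values of 6.11 and 18.7 RPM.

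Within group A the remaining genes were spread over both tissues. OsbZIP23, a regulator of abscisic acid signalling and drought resistance, had 32.6 to 35.03 RPM in roots. In leaves it was at 14.9 RPM for NT and 19.8, 21.1 and 25.8 RPM for the lines, above NT in each line by 0.54 ± 0.15, which did not pass (limma adjusted p = 0.101). OsbZIP66, or TRAB1, had 19.6 to 21.5 RPM in roots and 11.96 to 14.5 RPM in leaves. OsbZIP10, or OsABI5, had 2.36 to 6.74 RPM in roots and was listed at 0 in 3 of 4 leaf libraries.

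In the endosperm storage class 4 of 5 tested genes were higher in roots, where 58.5% of all genes were. OsbZIP15 (RISBZ4) had 54.4 to 57.5 RPM in roots and 15.02 to 17.95 RPM in leaves, OsbZIP52 (RISBZ5) had 47.2 to 58.96 RPM and 2.14 to 6.201 RPM, and OsbZIP20 (RISBZ3) had 38.4 to 52.7 RPM and 5.31 to 6.37 RPM. OsbZIP58, or RISBZ1, an activator of seed storage genes, was below the level for testing, with a highest value of 1.93 RPM. The endoplasmic reticulum stress class was led by OsbZIP50, which carries OsbZIP60 and OsbZIP74 as further symbols in the table and is known to be activated by IRE1 splicing of its RNA. OsbZIP50 had 80.9 to 105 RPM in roots and 24.7 to 36.4 RPM in leaves, and OsbZIP39 had 34.4 to 37.6 RPM and 20.2 to 25.8 RPM.

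Genes like the Arabidopsis zinc-deficiency factors bZIP19 and bZIP23 were read in both tissues. OsbZIP53, also called APIP5, was even between tissues as deposited, with 34.4 to 35.8 RPM in roots and 36.5 to 44.97 RPM in leaves, and with TMM rescaling it was higher in leaves (-0.78, adjusted p = 1.95e-05). OsbZIP44 had 29.4 to 39.7 RPM in roots and 9.98 to 11.4 RPM in leaves, and its root lines lay above NT by 0.32 ± 0.14 without passing (limma adjusted p = 0.373). OsbZIP07, the third of this class, was the member just under the level for testing with a mean of 0.924 RPM, and OsbZIP67 was just inside it with 1.99 RPM.

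Among G-box binding types, OsbZIP45 had 30.3 to 38.3 RPM in roots and 7.71 to 10.6 RPM in leaves, OsbZIP59 had 19.9 to 29.4 RPM and 17.6 to 19.9 RPM, and OsbZIP13 had 19.8 to 23.01 RPM and 13.3 to 16.8 RPM. OsbZIP81, similar to RSG, had 41.8 to 47.3 RPM in roots and 28.4 to 33.3 RPM in leaves. RF2b (OsbZIP30) and RF2a (OsbZIP75), known as host factors that bind the promoter of rice tungro bacilliform virus, had different profiles. OsbZIP30 had 16.4 to 20.6 RPM in roots and 1.26 to 1.87 RPM in leaves, and OsbZIP75 had 11.5 to 14.6 RPM and 11.5 to 15.7 RPM, where TMM rescaling put it higher in leaves (-0.74, adjusted p = 0.000112). OsbZIP04, of no assigned class, had 65.04 to 71.5 RPM in roots and 3.405 to 5.24 RPM in leaves.

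The 21 members under the level for testing included 3 listed at 0 in all 8 libraries, OsbZIP35, OsbZIP76 and Os03g0144951. The 5 members without an OsbZIP number had a highest value of 0.383 RPM. Of the 21, 4 reached 1 RPM in any library, namely OsbZIP07, OsbZIP58, OsbZIP78 and OsbZIP22.

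Candidate partners of TGA factors were read beside them from a list of NPR1-type genes, OsHRZ2 and numbered glutaredoxins, of which 22 were tested. The list was not limited to CC-type glutaredoxins, and the deposited annotation describes GRX6, GRX8, GRX13 and GRX19 as such. In each tissue 1 gene of the 22 passed, where 1.16% of all genes tested passed in roots and 3.79% in leaves. It was the same gene in both, GRX9 (Os02g0618100), similar to a chloroplastic glutaredoxin C4 and not described there as CC-type. Root values of GRX9 were 39.4 RPM for NT, with 114, 91.5 and 117 RPM for lines 13, 15 and 19. In leaves it was at 30.4 RPM for NT, with 78.7, 77.3 and 76.7 RPM for lines 13, 15 and 19. Lines and NT did not overlap, and the change was 1.42 ± 0.15 in roots (limma adjusted p = 0.00481) and 1.32 ± 0.15 in leaves (limma adjusted p = 0.00586). GRX6, a CC-type glutaredoxin linked to nitrogen use, was at 199 RPM for NT and 235, 258 and 267 RPM for the lines in roots and did not pass (limma adjusted p = 0.612). GRX4, similar to glutaredoxin C1 and named after its values were seen, lay the other way from GRX9 in leaves, at 23.2 RPM for NT and 2.02, 8.74 and 5.68 RPM for the lines. Its difference of -2.06 ± 0.54, larger in size than that of GRX9, did not pass (limma adjusted p = 0.0842).

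NH1, the rice NPR1, had root values of 60.7 RPM for NT and 60.1, 57.9 and 58.1 RPM for the lines. Its leaf values were 7.35 RPM for NT and 9.83, 13.8 and 8.83 RPM for the lines, all above NT in the lines. Its leaf difference of 0.48 ± 0.21 did not pass (limma adjusted p = 0.25). NH2 had 74.4 to 84.5 RPM in roots and 59.9 to 77.1 RPM in leaves. OsHRZ2, an iron-binding ubiquitin ligase that restrains iron acquisition, was at 21.9 RPM for NT and 15.1, 14.8 and 17.7 RPM for the lines in roots, below NT in every line with a log2 difference of -0.44 ± 0.16, which did not pass (limma adjusted p = 0.299). As deposited, 9 of the 22 genes were higher in roots and 10 higher in leaves, where 58.5% and 24.2% of all genes were. With TMM rescaling the shares of all genes were 40.9% and 38.9%. The 22 genes were not counted with that scaling, so their counts cannot be set against these shares.

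Over the 8 libraries the genes whose log2 profile was most like that of OsbZIP83 were Os01g0765000, similar to a deoxycytidylate deaminase (Pearson r = 0.976), Os04g0571300, an F-box gene (0.976), and Os04g0194433, Os06g0202300 and Os03g0597450 of unknown function (0.969, 0.969 and 0.966). Their ranges differed from that of OsbZIP83. Os06g0202300 was at 4.62 RPM for NT leaves and 39.1, 30.6 and 26.1 RPM for leaves of the lines, while Os01g0765000 stayed between 4.57 and 7.78 RPM in all libraries. Among members the most like profile was that of OsbZIP12 (r = 0.893), followed by OsbZIP87 (0.727). These values describe 8 libraries that share 2 tissues and 4 genotypes.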

How the data were processed

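Expression was measured by Lasy-Seq v1.1 libraries in 8 rice samples, in 1 table with 1 column per sample, and 0 per-sample columns were left unmapped. Its values are a normalized signal deposited by the authors, reads per 1000000 (RPM) per the series design, set to 1000000 within each library separately for 46120 genes, 10 rRNA rows and 92 ERCC rows. The submitters' processing notes name Trimmomatic 0.39, Bowtie 1.2.3, RSEM 1.2.21 and build IRGSP-1.0; which step each did, and any use of strand, is not given in the sources used here.

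Depth was estimated by taking the commonest nonzero value as 1 read. Values were not whole multiples of it. Among genes of moderate totals 9.47% to 12.3% were within 0.1 of a whole number, and 46.5% to 53.7% once 0.134% to 0.146% of each gene's summed reads had been returned to it, a deduction no source used here describes. No count test was therefore run, and a value of 0 is given as listed at 0.

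The 21991 genes that averaged 1 RPM or more were tested on log2(RPM + 1) with limma 3.58.1 in R 4.3.3 (lmFit, eBayes with trend; 4 group means, 4 residual degrees of freedom), two-sided, with Benjamini-Hochberg adjustment over all genes tested and a threshold of 0.05. Fold changes on this scale understate those of low genes. Contrasts were lines against NT in roots and in leaves, the difference of these effects, and roots against leaves as 4 against 4 libraries. The script was tested on simulated data. TMM factors were computed as a trimmed mean of log ratios, weighted, on the RPM values. Statmod 1.5.0, Python 3.11.15, numpy 2.4.6, pandas 2.3.3 and matplotlib 3.10.9 were also used.

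Classes follow lists of OsbZIP numbers, the annotation columns and the best Arabidopsis match, which 70 members have. Some members without a match, such as OsbZIP54 and OsbZIP87, were classed by number. OsbZIP84 and OsbZIP05 were moved to the classes of their annotation, and further TGA-type genes were added by best match. NH3, NRR, RH1 to RH3 and OsHRZ1 were not reported, since their symbols matched no row or more than 1. Named were OsbZIP83, OsbZIP79 and OsbZIP84, members past the threshold or 2-fold away from NT in each line at 5 RPM or more, the 8 largest tissue differences per direction, the 4 most abundant members per tissue, tested TGA genes, up to 4 per other class and the partners; others named were chosen after their values were seen. The members and lists were chosen with earlier results of these data known.

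Per the labels, the line pairs a root sample with a leaf sample. Over 15860 genes, deviations from the group means correlated between the tissues at 0.196 in line 13, -0.0308 in line 15 and 0.144 in line 19, and the correlation within a line estimated by limma was 0.00483. Sequences of members were not used here. Alternatives were another pseudocount, filter or scaling, the deduction added back, each line left out, single-tissue fits and a replicate block.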

Additional observations from a re-analysis of the deposited data

Results flagged for a closer look

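The log2 effect of the transgene on OsbZIP83 differed between the tissues by the test of the difference itself. The log2 difference between lines and NT was 2.42 in roots and 5.11 in leaves, a difference of -2.70 (limma adjusted p = 0.0164), with lines above NT in 3 of 3 lines in each tissue. The NT level was 32.00 RPM in roots and 1.62 RPM in leaves. In RPM the gain over NT was larger in roots (122, 154 and 156) than in leaves (73.7, 98.8 and 93.4). Without line 15 or line 19 the difference was -2.66 and -2.70 and did not pass (adjusted p = 0.118 and 0.242). With pseudocounts of 0.1 and 5 RPM it was -3.26 and -1.55 and passed. With the estimated deduction added back it was -2.17 and passed, so its size depends on the pseudocount and on the deduction. The part of the NT level in this difference was not tested.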

How the results depend on the processing

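Among members, counts of called genes moved as follows. In roots 1 member became 2 with a pseudocount of 5 RPM and 0 in the fit on the roots alone, and was 0 to 1 with a line left out. In leaves 5 became 2 with a pseudocount of 5 RPM, 2 with no filter on low values, 3 with TMM rescaling, 3 with quantile normalization and 0 in the fit on the leaves alone, and was 1 to 3 with a line left out. For the difference of the 2 effects 1 became 0 to 1 with a line left out. Between roots and leaves 63 ranged from 51 to 71 over 12 alternatives. Over all genes the 256 root calls became 410 with a pseudocount of 5 RPM, 684 with no filter, 121 with a filter at 5 RPM and 57 in the fit on the roots alone, and were 65 to 258 with a line left out. The 834 leaf calls became 16 in the fit on the leaves alone and were 90 to 809 with a line left out. The 84 calls of the difference became 161 with a pseudocount of 5 RPM, 245 with no filter, 31 with a filter at 5 RPM, 54 with TMM rescaling and 54 with quantile normalization, and were 0 to 25 with a line left out. OsbZIP84 in roots, at -0.026 with all lines, was -0.065 to 0.0203 with a line left out and turned positive without line 19. The adjusted p of OsbZIP83 ranged from 0.000785 to 0.0671 in roots and from 2.58e-05 to 0.0603 in leaves, and that of OsbZIP18 in leaves from 0.00926 to 0.237. The cause of these changes was not tested, beyond the smaller number of libraries in fits that leave some out. With the replicate block for the pairing by line, 1 member passed in roots, 5 in leaves, 1 in the difference and 64 between tissues, and 255, 834, 92 and 18273 of all genes; no call of a named member between lines and NT changed. The single NT library per tissue limits every comparison with NT, and levels under 1 RPM rest on few reads at about 17000000 to 35700000 per library.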
